A study of Mus musculus with 21 samples.

Results

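The nuclear-encoded subunits of respiratory complexes II to V were followed in mouse quadriceps through their mRNA levels. Members were taken by gene symbol from the deposited expression table: the 4 Sdh genes of complex II, Cyc1 and the Uqcr genes of complex III, the Cox4 to Cox8 genes of complex IV and the Atp5 genes of complex V, with symbols holding "-ps" left out. The rule found 49 of 53738 gene symbols, of which 4 belong to complex II, 9 to complex III, 19 to complex IV and 17 to complex V. No measured value entered the rule. Symbols are used as the table gives them. The inhibitor of the ATP synthase is listed as Atpif1, which the rule does not take.

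Complex II oxidises succinate and passes the electrons to ubiquinone, complex III moves them from ubiquinol to cytochrome c, and complex IV, cytochrome c oxidase, hands them to oxygen. Complexes III and IV pump protons out of the matrix, and complex V, the ATP synthase, uses the returning protons to make ATP. Complex II is built from nuclear genes alone, whereas complexes III, IV and V also hold subunits made from the mitochondrial genome. Several complex IV subunits exist as a form found in most tissues and a form of heart and skeletal muscle, such as Cox6a1 and Cox6a2, Cox7a2 and Cox7a1, or Cox8a and Cox8b, and repeated endurance exercise is known to enlarge the mitochondrial network of muscle.

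RNA-seq libraries from the quadriceps of wildtype adult male C57/Bl6 mice were sequenced in 7 groups of 3 libraries each. Sedentary mice did not exercise. Untrained mice ran a single treadmill bout to exhaustion, and their muscle was taken at 0 h, at 6 h or at 72 h. Trained mice had run voluntarily on wheels for 12 weeks and then did the same bout, with the same 3 time points. No group was trained without a bout, so training can be read only by comparing trained with untrained muscle at the same time. The labels do not say whether the libraries of a group came from separate mice, so the p-values measure only the spread between libraries. In whole muscle, fewer cells of a type and less RNA per cell cannot be told apart.

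Replicate 1 of untrained 0 h and replicate 1 of trained 0 h held the same value in each of the 25037 genes above 0 and in all 49 members, so the table holds 20 distinct libraries. Results at 0 h hold that library in both groups, and several are also given without it. Genes of the mitochondrial genome took 37.7 to 48.0% of the TPM (a level per transcript length, scaled to 1 fixed total in every library), the least in the 0 h groups (37.7 to 40.6%) and the most in trained muscle at 6 h and 72 h (45.7 to 48.0%). A large part of that share was a single gene, mt-Atp8, at 165088 to 208122 TPM. TPM keeps no read depth, so the depth of the libraries is unknown. The 7 myofibre markers summed to between 50939 and 68381 TPM, and the 3 brown fat markers to between 0.516 and 11.3 TPM.

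The 45 members with a mean of at least 1 TPM were tested with limma among 11819 genes. A gene was called where its adjusted p was below 0.05 and its fold change at least 1.5. The other 4 members, all of complex IV, lay under that level. Cox6b2, the testis form of subunit 6B, was between 0.215 and 0.849 TPM, Cox7b2 reached 0.0709 TPM, Cox6c2 was above 0 in 1 library only (1.88 TPM), and Cox8c was listed at 0 in every library.

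The promoters of the isoform genes are shown because the results turn on these pairs. RefSeq promoters (GRCm38.p6) were matched for 36 of the 49 members, and Cox6a2 was not among them. Each sequence is the 250 bases before the gene's start, read in the direction of the gene, with motif matches on either strand in capitals.
Cox6a1 (chr5:115348959-115349208, minus strand): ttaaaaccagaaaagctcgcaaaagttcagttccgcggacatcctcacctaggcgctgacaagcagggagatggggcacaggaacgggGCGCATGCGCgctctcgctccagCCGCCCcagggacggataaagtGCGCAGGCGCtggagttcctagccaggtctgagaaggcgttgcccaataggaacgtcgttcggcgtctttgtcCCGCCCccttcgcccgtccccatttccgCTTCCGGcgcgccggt
Cox7a2 (chr9:79759854-79760103, minus strand): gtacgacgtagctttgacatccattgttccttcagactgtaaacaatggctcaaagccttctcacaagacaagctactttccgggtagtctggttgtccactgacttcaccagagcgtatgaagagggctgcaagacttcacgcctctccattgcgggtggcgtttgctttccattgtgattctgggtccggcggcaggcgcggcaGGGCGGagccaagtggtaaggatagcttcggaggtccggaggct
Cox8a (chr19:7217617-7217866, minus strand): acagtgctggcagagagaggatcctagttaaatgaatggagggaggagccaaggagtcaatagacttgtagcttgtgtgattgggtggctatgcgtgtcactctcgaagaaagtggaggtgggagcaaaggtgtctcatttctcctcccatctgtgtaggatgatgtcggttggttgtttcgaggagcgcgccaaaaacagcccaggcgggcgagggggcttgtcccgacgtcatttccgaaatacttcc
Cox7a1 (chr7:30183921-30184170, plus strand): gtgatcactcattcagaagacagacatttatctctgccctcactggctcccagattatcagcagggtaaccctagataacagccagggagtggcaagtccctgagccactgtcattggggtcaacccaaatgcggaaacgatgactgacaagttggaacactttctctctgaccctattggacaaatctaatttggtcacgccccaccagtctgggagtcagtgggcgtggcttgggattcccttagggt
Cox8b (chr7:140900447-140900696, minus strand): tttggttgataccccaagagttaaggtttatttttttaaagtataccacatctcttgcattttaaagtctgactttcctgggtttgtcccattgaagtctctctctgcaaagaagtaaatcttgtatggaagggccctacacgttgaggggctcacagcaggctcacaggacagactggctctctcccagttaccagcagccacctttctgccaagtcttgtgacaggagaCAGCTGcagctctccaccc
The palindromic motif of nuclear respiratory factor 1 (NRF1) was searched along with 5 shorter motifs. The ETS core was CCGGAAG. For the receptors of the oestrogen-related family the half-site was AAGGTCA. Sp1-type boxes were searched as GGGCGG. The E box of muscle factors was CAGCTG. The TATA box was TATAAA. No motif is contained in another. Cox6a1, the form of most tissues, held 2 NRF1 motifs, 2 Sp1-type boxes and 1 ETS core. Cox8b, a muscle form, held 1 E box, Cox7a2 held 1 Sp1-type box, and Cox7a1 and Cox8a held none of the 6. Over the 36 members, 7 promoters (19.4%) held the NRF1 motif and 9 (25.0%) the ETS core, against 4.23% and 7.83% of all 27025 gene promoters. The other shares were 5.56% against 4.7% for the receptor half-site, 33.3% against 35.4% for the Sp1-type box, 5.56% against 14.7% for the E box and 8.33% against 14.3% for the TATA box. A match describes these letters and not binding.

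By median level over the 20 distinct libraries, the members ran from 1164 TPM for Cox8b and 1118 TPM for Cox7b down to 1.75 TPM for Cox4i2, the lung form of subunit 4, among those tested. The muscle forms stood above their partners. Cox8b lay far above Cox8a (30.3 TPM), and Cox6a2 (683 TPM) far above Cox6a1 (13.5 TPM). Cox7a1 (470 TPM) and Cox7a2 (174 TPM) were closer. Of the genes of the c-ring, the rotor of the ATP synthase, Atp5g1 (596 TPM) and Atp5g3 (503 TPM) lay above Atp5g2 (223 TPM). The catalytic beta subunit Atp5b (960 TPM) and the alpha subunit Atp5a1 (687 TPM) were among the 5 highest members.

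Over the whole course the members moved little. Their 7 group means differed by a median of 0.23 on the log2 scale from the highest group to the lowest. The median was 0.24 for the 39 complex I subunits and 0.40 for all genes tested. Genes tested reach down to a mean of 1 TPM, whereas most members were far above it. In 44 of 45 members (97.8%) that range was under 1.5-fold, against 70.9% of all genes tested and 35 of the 39 complex I subunits. The exception was Cox6a1. The members' libraries also spread less within a group than those of all genes tested, with a median SD of 0.0993 on the log2 scale against 0.150. Complex I was close to the members, at 0.0969. An F test over the 7 groups found 10 of 45 members that varied, with 34.6% of all genes tested passing the same test. They were Sdha, Sdhc and Sdhd of complex II, Uqcrc1 and Uqcr10 of complex III, Cox6a1 and Cox7b of complex IV, and Atp5a1, Atp5e and Atp5g2 of complex V. After the values were rescaled without the mitochondrial genome 7 of 45 members passed, where 24.4% of the 13566 genes tested on that scale did. Of the 7 members, 3 (Sdha, Uqcrc1 and Cox6a1) were among the 10.

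**Figure D1:**
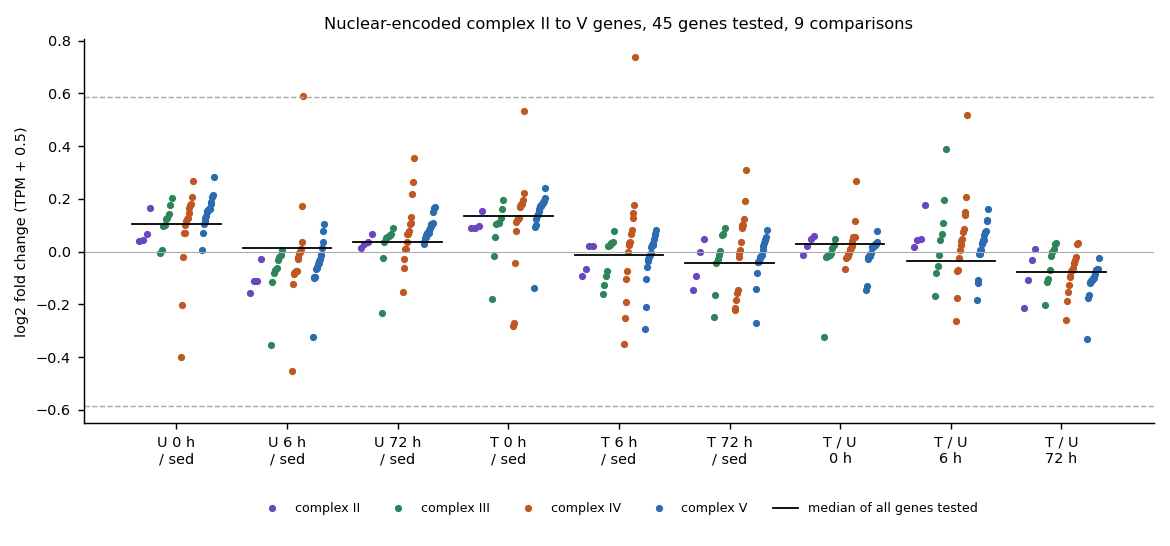
Log2 fold changes (TPM + 0.5) of the 45 tested members in 9 comparisons, 1 point per gene, coloured by complex. U is untrained, T trained and sed sedentary, black lines are the median of all 11819 genes tested and dashed lines a 1.5-fold change. In trained muscle at 6 h Cox6a1 (0.74) is the one point above the upper dashed line.

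Immediately after the bout, most members lay slightly above sedentary muscle, as did most genes. In untrained muscle 41 of 45 members were above, with a median log2 fold change of 0.13 (all genes 0.10). None was called by limma, against 3.59% of all genes tested, and 13 had an unadjusted p below 0.05 (2860 of 11819 genes). The libraries of 15 members lay wholly above the sedentary ones (22.9% of all genes) and those of none wholly below (4.22%). In trained muscle at 0 h, 39 members were above with a median of 0.13 (all genes 0.13), none was called by limma (3.74% of all genes) and 19 had an unadjusted p below 0.05 (3217 genes). There 14 lay wholly above (26.3%) and none wholly below (2.78%). The shared library was the highest of all for 32 members, and without it the medians were 0.06 and 0.09. On values rescaled without the mitochondrial genome, 22 of 45 members were above sedentary in either state and the medians were 0.00 and -0.01.

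At 6 h most members lay below sedentary in untrained but not in trained muscle. In untrained muscle 36 of 45 lay below, with a median of -0.05 (all genes 0.01). In trained muscle 24 lay above and 21 below, with a median of 0.02 (all genes -0.01). In the untrained state none was called by limma (4.42% of all genes tested), 4 had an unadjusted p below 0.05 (2574 genes), 5 lay wholly below the sedentary libraries (8.72% of all genes) and 2 wholly above (11.7%). In the trained state 1 of 45 was called (3.85% of all genes), 6 had an unadjusted p below 0.05 (2854 genes), 4 lay wholly below (15% of all genes) and 1 wholly above (13.9%). Untrained 6 h held the lowest group mean of 22 of the 45 members and the 0 h groups the highest of 33, or of 27 without the shared library. On values rescaled without the mitochondrial genome, untrained 6 h held the lowest mean of 32 members, the 0 h groups the highest of 5 and trained 72 h the highest of 20.

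At 72 h, 40 of 45 members lay above sedentary in untrained muscle, with a median of 0.07 (all genes 0.04), and 20 in trained muscle, with a median of -0.01 (all genes -0.04). The trained count depended on the scale, with 33 of 45 above sedentary on the rescaled values (median 0.06, all genes 0.03) and 29 under median-of-ratios scaling (median 0.02, all genes -0.02). In untrained muscle the same scalings gave 36 and 27. None was called by limma in either, against 0.00846% and 0.169% of all genes tested, and 2 and 3 members had an unadjusted p below 0.05 (682 and 1379 genes). In untrained muscle 6 members lay wholly above the sedentary libraries (9.04% of all genes) and 1, Cox6a2, wholly below (3.16%). In trained muscle 2 lay wholly above (5.63%) and 5 wholly below (13.8%), namely Sdhd, Uqcr10, Cox6a2, Cox8b and Atp5e. Of these 5, only Sdhd stayed wholly below the sedentary libraries on the rescaled values. For 42 of the 45 members the 95% interval of the trained 72 h difference from sedentary stayed within 1.5-fold in both directions.

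Trained and untrained muscle were then compared at the same time point. At 6 h, 31 of 45 members were on the higher side in trained muscle (median 0.04, all genes -0.04), none was called by limma (2.01% of all genes) and 6 had an unadjusted p below 0.05 (2166 genes). Uqcrc2, Cox7a1 and Atp5h lay wholly above (7.4% of all genes), and Uqcr10, Cox6a2, Atp5d and Atp5e wholly below (11.5%). At 72 h, 39 of 45 were on the lower side in trained muscle (median -0.09, all genes -0.08), none was called by limma (0.245% of all genes) and 4 had an unadjusted p below 0.05 (1769 genes). There 17 lay wholly below (24.6% of all genes) and none wholly above (3.93%). At 0 h the groups share a library, so none can be separate, and limma called 0 members (0% of all genes) with 0 at an unadjusted p below 0.05 (143 genes).

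The scale of TPM bore on these signs. The summed TPM of the 49 members was 19204 ± 867 (SD, n = 3) in sedentary muscle. In the order of the time points, the untrained sums were 20878 ± 1713, 18346 ± 849 and 19981 ± 540 TPM, and the trained sums 20846 ± 1744, 18552 ± 1164 and 18758 ± 445 TPM. As a share of the TPM outside the mitochondrial genome, the members took 3.47 ± 0.151% in sedentary muscle. The untrained shares were 3.44 ± 0.209%, 3.21 ± 0.202% and 3.53 ± 0.0722%, and the trained shares 3.42 ± 0.230%, 3.47 ± 0.260% and 3.57 ± 0.0867%. Untrained 6 h was the lowest group on both scales, whereas the highest was untrained 0 h on the first and trained 72 h on the second, and on both scales the libraries of every exercised group overlapped the sedentary ones. The mitochondrial genome itself took 44.5 ± 2.39% of TPM in sedentary, 42.6 ± 1.75% in untrained 6 h and 46.4 ± 0.659% in trained 6 h libraries.

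After rescaling without the mitochondrial genome, 30 of 45 members were on the higher side in trained muscle at 72 h (median 0.02, all genes 0.01), so the direction there depended on the scale. At 6 h the rescaled values put 41 of 45 members below sedentary in untrained muscle (median -0.10, all genes -0.03). They put 39 of 45 higher in trained than in untrained muscle (median 0.14, all genes 0.05). On that scale 5 members had an adjusted p below 0.05 by limma for trained against untrained at 6 h, where 6.3% of all genes did, none of them by 1.5-fold. Uqcrc2 was higher by 0.29 on the log2 scale, Cox7a1 by 0.30, Sdhb by 0.27, Atp5h, a stalk subunit of complex V, by 0.26 and Sdha by 0.14, with adjusted p from 0.00796 to 0.0441. Atp5h was named after its values were seen.

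**Figure D2:**
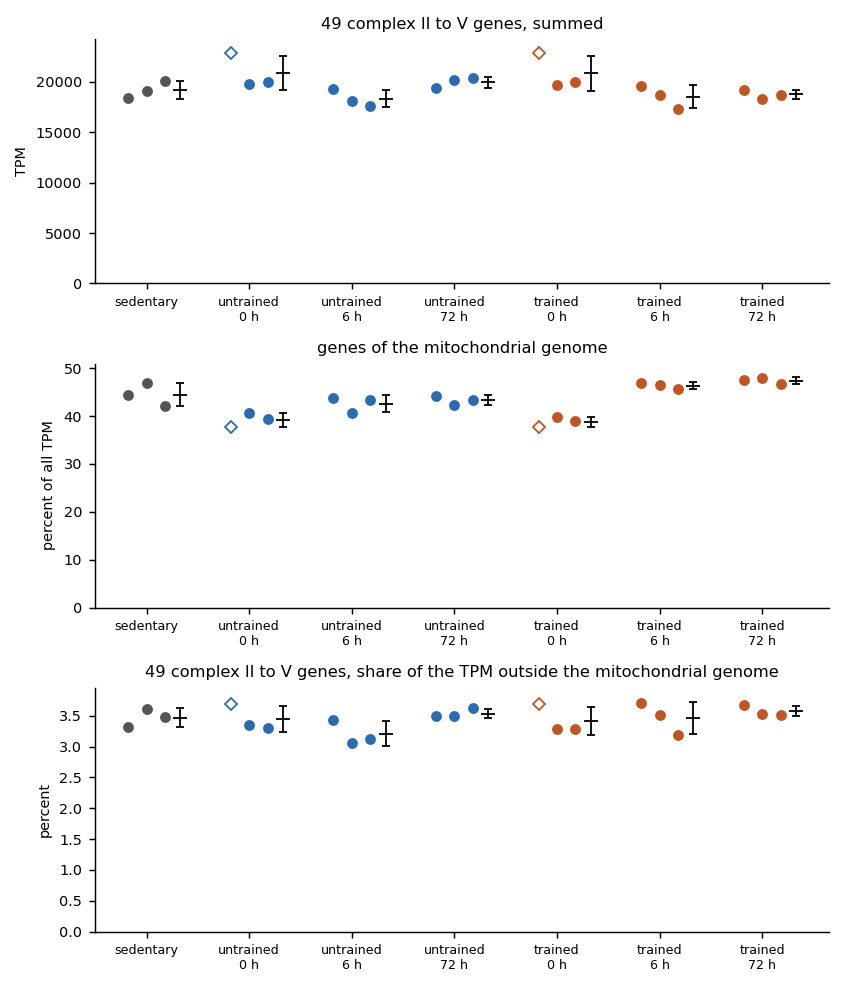
Summed TPM of the 49 members, the percent of all TPM in genes of the mitochondrial genome, and the members as a percent of the TPM outside that genome, in panels by group. Points are libraries, open diamonds the library listed under both 0 h groups, bars the mean and SD of 3 libraries. The shared library has the highest sum (22854 TPM), and the mitochondrial share is lowest at 0 h.

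In complex II, the flavoprotein Sdha, which oxidises succinate, was at 223, 211 and 229 TPM in sedentary muscle, at 202, 210 and 201 TPM in untrained 6 h and at 216, 204 and 212 TPM in trained 6 h libraries. The untrained 6 h libraries lay just below the sedentary ones, with a log2 fold change of -0.11 ± 0.05 (SE) and an adjusted p of 0.157 by limma. On the rescaled values the difference was -0.16 ± 0.04 with an adjusted p of 0.0164, and for the membrane anchor Sdhc -0.16 ± 0.05 with 0.0374. No other member passed the adjusted p of limma in that comparison and scale, where 10.5% of all genes did. Sdhb, the iron-sulfur subunit, had the lowest log2 fold change of complex II in untrained muscle at 6 h, -0.16 ± 0.07 (adjusted p = 0.227 by limma), and 0.02 ± 0.07 in trained muscle.

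Sdhd, the other membrane anchor (chr9:50507642-50515195, minus strand, GRCm39), had the smallest adjusted p of all members in the F test of limma, 0.00656. Its sedentary libraries were at 129, 128 and 138 TPM. At 0 h it stood at 156, 141 and 146 TPM (untrained) and 156, 138 and 145 TPM (trained). At 72 h it stood at 137, 138 and 138 TPM (untrained) and 116, 120 and 121 TPM (trained). The trained 72 h libraries lay below all sedentary and all untrained 72 h libraries. The log2 difference from untrained muscle at 72 h was -0.21 ± 0.06 (SE), with an adjusted p of 0.116 by limma, and on the rescaled values Sdhd was not among the members that varied. At 6 h it had the highest log2 fold change of complex II in either state, -0.03 in untrained and 0.02 in trained muscle.

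In complex III, the core proteins Uqcrc1 and Uqcrc2 moved by small steps. Uqcrc1 was at 264 ± 9.06 TPM (SD, n = 3) in sedentary muscle, 282 ± 7.77 and 285 ± 5.74 TPM at 0 h, and 253 ± 12.1 and 251 ± 6.74 TPM at 6 h, the untrained group first. Uqcrc2 (chr7:120233976-120260035, plus strand, GRCm39) was at 190, 189 and 198 TPM in sedentary muscle, at 181, 177 and 174 TPM in untrained 6 h and at 209, 190 and 211 TPM in trained 6 h libraries. The trained libraries lay above all untrained ones at 6 h, and the log2 difference was 0.20 ± 0.06 (SE) with an adjusted p of 0.0561 by limma, the smallest of any member in that comparison. The adjusted p was 0.0334 by limma without the shared 0 h library, 0.00796 on the rescaled values, and between 0.0345 and 0.18 when single libraries of both groups were left out. Uqcrc2 had the highest log2 fold change of complex III in trained muscle at 6 h (0.08 ± 0.06). Uqcr10, a small accessory subunit, had the lowest there (-0.16 ± 0.08, adjusted p = 0.202 by limma) and the highest in untrained muscle (0.01 ± 0.08). The Rieske iron-sulfur protein Uqcrfs1 was at 173 ± 6.93 TPM in sedentary muscle, 163 ± 11.5 TPM in untrained 6 h and 176 ± 6.81 TPM in trained 6 h libraries.

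Cyc1, the cytochrome c1 of complex III (chr15:76227204-76230462, plus strand, GRCm39), took 2 separate levels. It was low in untrained 6 h replicate 2 (179 TPM), untrained 72 h replicate 1 (174 TPM), trained 0 h replicate 3 (199 TPM) and trained 72 h replicate 2 (195 TPM). In the other libraries it was between 341 and 425 TPM. The low libraries were spread over 4 groups, and its lowest log2 fold change at 6 h, -0.35 ± 0.37 (SE) in untrained muscle, had an adjusted p of 0.661 by limma. Cox5b of complex IV (chr1:36730530-36734495, plus strand, GRCm39) did the same, between 233 and 286 TPM in 6 libraries and 364 to 495 TPM in the rest. In untrained 6 h muscle it was at 286, 255 and 386 TPM, and its log2 fold change of -0.45 ± 0.26, the lowest of complex IV there, had an adjusted p of 0.347 by limma. The cause of these steps was not tested.

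Of the other complex IV subunits, Cox4i1, the usual form of subunit 4, was at 578 ± 31.4 TPM (SD, n = 3) in sedentary muscle, 582 ± 23.2 TPM in untrained 6 h and 593 ± 33.4 TPM in trained 6 h libraries. Cox5a was at 410, 419 and 444 TPM in sedentary muscle, 445, 401 and 422 TPM in untrained 6 h and 446, 417 and 439 TPM in trained 6 h libraries. Cox7b, at 1135 ± 58.1 TPM in sedentary muscle, was at 1310 ± 94.3 and 1291 ± 134 TPM at 0 h and 1044 ± 90.4 and 1001 ± 155 TPM at 6 h, the untrained group first. Its adjusted p in the F test of limma was 0.0361.

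Cox6a1, the form of subunit 6A found in most tissues (chr5:115483701-115487050, minus strand, GRCm39), was the only member called in any of the 9 comparisons. It was at 8.44, 12.1 and 12.4 TPM in sedentary muscle. At 6 h it stood at 15.5, 17.5 and 16.7 TPM (untrained) and 23.5, 14.2 and 18.6 TPM (trained), all above the 3 sedentary libraries. In trained muscle at 6 h it rose 1.67-fold, a log2 fold change of 0.74 ± 0.18 (SE), with an adjusted p of 0.0155 by limma. In untrained muscle the log2 fold change was 0.59 ± 0.18 with an adjusted p of 0.0515 by limma. The trained-minus-untrained difference at 6 h was 0.15 ± 0.18 (95% interval -0.23 to 0.53, adjusted p = 0.727 by limma). The call was lost without sedentary replicate 1 (0.57, adjusted p = 0.0818 by limma) and without trained 6 h replicate 1 (0.57, adjusted p = 0.0827 by limma). Without the latter the trained-minus-untrained difference became -0.02. At 0 h Cox6a1 stood at 16.8, 10.7 and 12.6 TPM (untrained) and 16.8, 13.9 and 17.3 TPM (trained), with a log2 fold change of 0.53 ± 0.18 and an adjusted p of 0.0744 by limma in trained muscle. At 72 h it stood at 12.9, 14.6 and 11.9 TPM (untrained) and 11.7, 12.4 and 13.2 TPM (trained).

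Cox6a2, the form of heart and skeletal muscle (chr7:127804607-127805559, minus strand, GRCm39), stood at a far higher level. It was at 708, 730 and 792 TPM in sedentary muscle, at 731, 685 and 683 TPM in untrained 6 h and at 581, 660 and 515 TPM in trained 6 h libraries. The trained 6 h libraries lay below all sedentary and all untrained 6 h libraries. Its log2 fold change there was -0.35 ± 0.10 (SE) with an adjusted p of 0.0277 by limma, under the 1.5-fold threshold. The adjusted p of limma was 0.066 under median-of-ratios scaling and 0.065 with no filter on low values. It was also above 0.05 when sedentary replicate 2 (0.0601) or 3 (0.0966) or trained 6 h replicate 1 (0.0756) or 3 (0.133) was left out, and the log2 fold change then ranged from -0.36 to -0.26. Cox6a1 and Cox6a2 were the 2 members past the adjusted p alone in trained muscle at 6 h, where 10.4% of all genes were. Against untrained muscle at 6 h the difference was -0.26 ± 0.10 with an adjusted p of 0.143 by limma.

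Because Cox6a1 is also made by cells other than myofibres, marker genes of such cells are given beside it. The 4 white fat markers summed to 110 to 124 TPM in sedentary, 150 to 186 TPM in untrained 6 h and 159 to 246 TPM in trained 6 h libraries, with 0 of the 3 tested called by limma in either (Fabp4 in trained muscle had a log2 fold change of 0.64 and an adjusted p of 0.109). Trained 6 h replicate 1, the highest in Cox6a1, also had the highest white fat sum of that group. Its brown fat genes Ucp1 and Cidea were at 3.26 and 4.74 TPM. Ucp1 was higher still in trained 0 h replicate 3 (4.01 TPM, with Cox6a1 at 17.3 TPM). The same held for trained 72 h replicate 2 (3.90 TPM, with Cox6a1 at 12.4 TPM). Untrained 6 h libraries, with Cox6a1 above sedentary, had Ucp1 at 0.103, 0 and 0.0119 TPM. The 5 macrophage markers summed to 26.4 to 28.9 TPM in sedentary libraries. At 6 h they summed to 23.4 to 46.5 TPM in untrained and 22.7 to 32.5 TPM in trained libraries. Of the 4 tested, Cd68 and Csf1r were called higher in untrained 6 h than in sedentary muscle, and Mrc1 and Lyz2 were not called. Mrc1 was at 0.894 to 2.303 TPM in untrained 6 h libraries, on both sides of the sedentary ones (1.536 to 1.856 TPM). The untrained 6 h libraries of Lyz2, and of Adgre1, which was under the filter, also lay on both sides. The part of these marker genes in the Cox6a1 result was not tested.

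**Figure D3:**
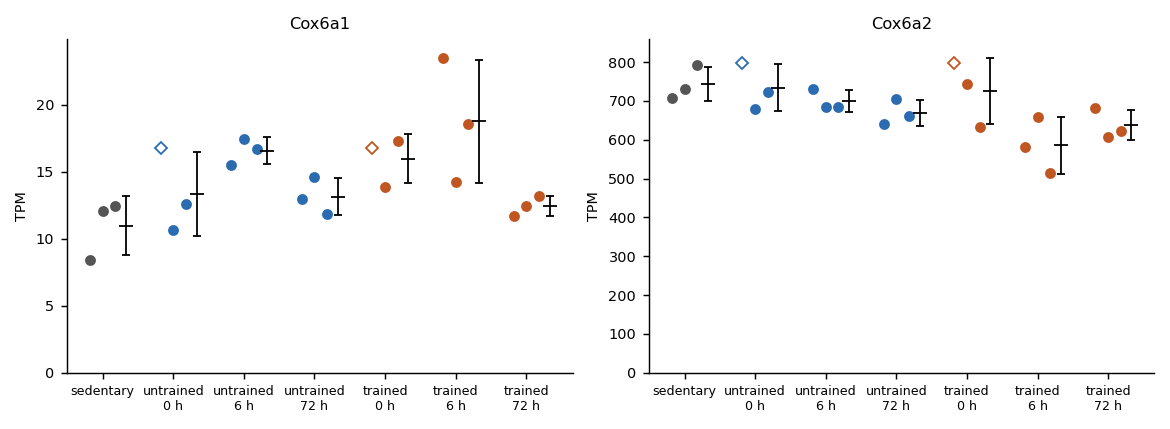
TPM of Cox6a1 (left) and Cox6a2 (right) by group, on axes from 0. Points are libraries, open diamonds the library listed under both 0 h groups, bars the mean and SD of 3 libraries. All 6 h libraries of Cox6a1 lie above the sedentary ones, and the trained 6 h libraries of Cox6a2 lie below them.

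The ratio of 2 members within a library does not depend on the scale of TPM, and 7 such ratios were compared. Trained and untrained libraries at 6 h and 72 h entered a 2-sided exact permutation test, stratified by time, with p-values adjusted over the 7 ratios. Cox7a1 over Cox7a2, the muscle form over the usual form of subunit 7A, was the only ratio that passed. It was 2.51, 2.67 and 2.68 in sedentary muscle. Untrained libraries had 2.62, 2.58 and 2.68 at 6 h and 2.52, 2.59 and 2.54 at 72 h. Trained libraries had 3.02, 2.96 and 3.06 at 6 h and 3.05, 2.80 and 2.72 at 72 h. Every trained library at these times lay above every sedentary and every untrained library. The mean difference was 0.18 on the log2 scale, or 1.15-fold at 6 h and 1.12-fold at 72 h, with p = 0.005, the smallest this exact permutation test can give, and an adjusted p of 0.035. At 0 h the ratio was 2.47, 2.69 and 2.46 (untrained) and 2.47, 2.59 and 2.47 (trained). In the exact permutation test the adjusted p was 0.07 without untrained 72 h replicate 3 and 0.219 where libraries of the same number were taken as pairs. In every such pair the trained library was higher, so the paired p was the smallest that test can give. With so few pairs it could not have passed this ratio alone, and it decides nothing here.

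At 6 h Cox7a1 (chr7:29883569-29885503, plus strand, GRCm39) was at 459, 413 and 418 TPM in untrained and 531, 471 and 486 TPM in trained libraries, a log2 difference of 0.21 ± 0.08 (SE) with an adjusted p of 0.18 by limma. Cox7a2 (chr9:79653049-79667162, minus strand, GRCm39) was at 175, 160 and 156 TPM and 176, 159 and 159 TPM in the same groups, a difference of 0.01 ± 0.08. At 72 h the difference was 0.03 ± 0.08 for Cox7a1 and -0.13 ± 0.08 for Cox7a2. Markers of slow fibres are given beside the ratio. The 7 genes summed to 535 to 1005 TPM in sedentary muscle. At 6 h they summed to 246 to 371 TPM in untrained and 380 to 1130 TPM in trained libraries, where the slow light chain Myl2 was called higher (1.41, adjusted p = 0.048 by limma). At 72 h they summed to 354 to 505 TPM in untrained and 275 to 421 TPM in trained libraries. Their part in the ratio was not tested.

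The other muscle-to-usual ratios were lower at 6 h and 72 h after the bout than in sedentary muscle. At 0 h Cox8b over Cox8a overlapped the sedentary libraries in both states, and Cox6a2 over Cox6a1 only in untrained muscle. Cox6a2 over Cox6a1 was 69.4 ± 12.6 (SD, n = 3) in sedentary muscle, 42.4 ± 4.24 in untrained 6 h libraries and 24.8, 46.3 and 27.8 in trained 6 h libraries. At 72 h it was 51.2 ± 4.02 (untrained) and 51.5 ± 5.89 (trained). All libraries of these 4 groups lay below all sedentary ones. An exact permutation test of 3 against 3 cannot give less than p = 0.1, and gave 0.1 for each. Trained and untrained muscle differed by -0.21 on the log2 scale (exact permutation test p = 0.265, adjusted p = 0.309). Cox8b over Cox8a was 44.8 ± 2.24 in sedentary muscle, 37.7 ± 2.42 and 34.0 ± 3.39 at 6 h, and 37.0 ± 4.53 and 36.8 ± 2.58 at 72 h, the untrained group first. Again no library of these 4 groups overlapped the sedentary ones, and each exact permutation test gave p = 0.1. The trained-minus-untrained difference was -0.08 (exact permutation test p = 0.325, adjusted p = 0.325). Cox8b itself was at 1218 ± 86.1 TPM in sedentary and 1027 ± 147 TPM in trained 6 h libraries, a log2 fold change of -0.25 ± 0.10 (SE) with an adjusted p of 0.108 by limma.

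**Figure D4:**
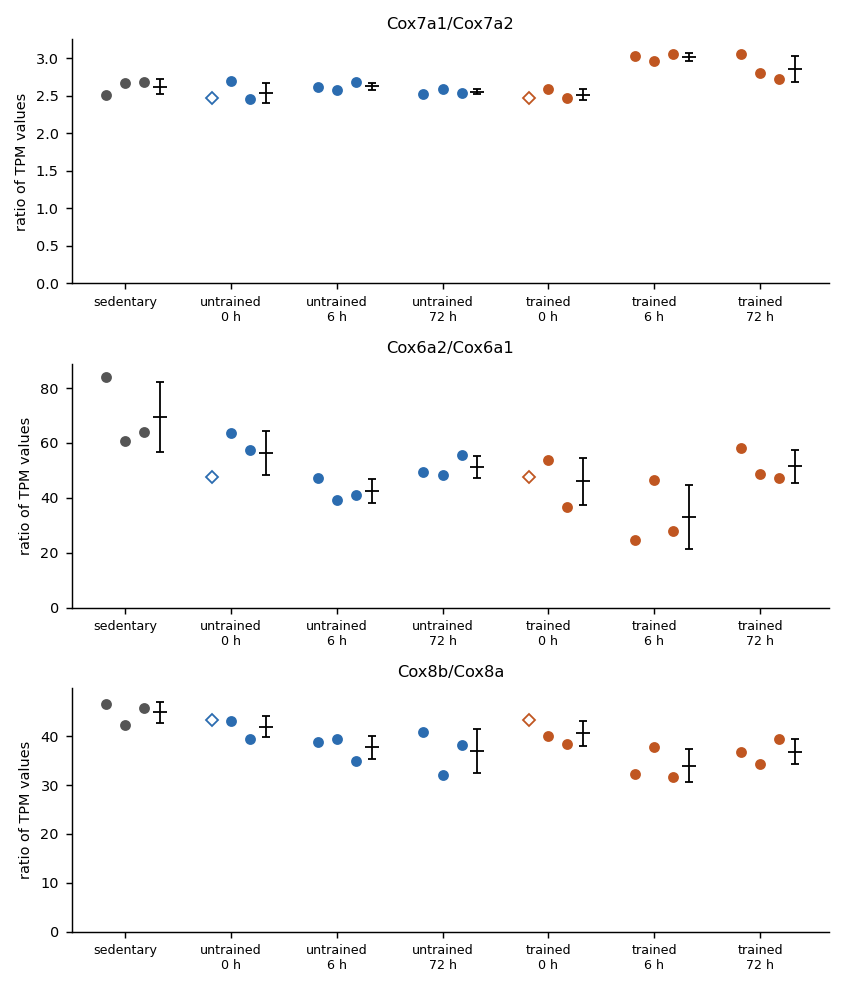
Ratios of TPM values within a library for Cox7a1/Cox7a2, Cox6a2/Cox6a1 and Cox8b/Cox8a, by group. Points are libraries, open diamonds the library listed under both 0 h groups, bars the mean and SD of 3 libraries. The 6 trained libraries at 6 h and 72 h are above all others for Cox7a1/Cox7a2, and the 6 h and 72 h libraries are below the sedentary ones for the other 2 ratios.

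The remaining ratios did not pass. Cox7a2l, a factor that joins complexes III and IV, stood to Cox7a2 at 0.559 ± 0.0269 (SD, n = 3) in trained 6 h, 0.510 ± 0.0359 in untrained 6 h and 0.470 ± 0.0337 in sedentary libraries. Its trained-minus-untrained difference was 0.10 (exact permutation test p = 0.05, adjusted p = 0.117). Cox4i2 over Cox4i1 differed by -0.13 (exact permutation test p = 0.115, adjusted p = 0.201). Of the c-ring pairs, Atp5g1 over Atp5g3 differed by -0.03 (adjusted p = 0.231) and Atp5g2 over Atp5g3 by -0.11 (adjusted p = 0.117) in the same exact permutation test.

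In complex V, the alpha subunit Atp5a1 was at 668 ± 31.8 TPM (SD, n = 3) in sedentary muscle, 730 ± 10.2 and 728 ± 36.1 TPM at 0 h, and 642 ± 26.3 and 662 ± 39.1 TPM at 6 h, the untrained group first. The beta subunit Atp5b was at 949 ± 78.3 TPM in sedentary, 887 ± 20.6 TPM in untrained 6 h and 935 ± 46.8 TPM in trained 6 h libraries. The gamma subunit Atp5c1 was at 431 ± 15.8 TPM in sedentary, 418 ± 15.0 TPM in untrained 6 h and 437 ± 25.0 TPM in trained 6 h libraries. Atp5e, the epsilon subunit, was named after its values were seen. It was at 805, 796 and 880 TPM in sedentary, 862, 805 and 768 TPM in untrained 6 h, 764, 752 and 632 TPM in trained 6 h and 786, 732 and 729 TPM in trained 72 h libraries. The trained libraries at 6 h and 72 h lay below all sedentary ones. The log2 fold changes were -0.21 ± 0.09 (SE) and -0.14 ± 0.09, with adjusted p of 0.14 and 0.562 by limma. On the values rescaled without the mitochondrial genome, the trained 72 h libraries (1499, 1408 and 1367) overlapped the sedentary ones (1447, 1500 and 1522). The trained 6 h libraries (1440, 1405 and 1164) stayed below on that scale. The c-ring gene Atp5g2 was at 215 ± 10.3 TPM in sedentary, 200 ± 14.7 TPM in trained 6 h and 203 ± 9.35 TPM in trained 72 h libraries.

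The extremes of complex V at 6 h were small. Atp5d, the delta subunit, was the highest in untrained muscle at 0.10 ± 0.07 (SE) and Atp5l, a membrane subunit, the highest in trained muscle at 0.08 ± 0.11. Atp5j, a peripheral stalk subunit, was the lowest in both, at -0.33 ± 0.14 in untrained and -0.29 ± 0.14 in trained muscle, with adjusted p of 0.163 and 0.196 by limma. Atp5j was at 496, 521 and 527 TPM in sedentary, 385, 476 and 377 TPM in untrained 6 h and 522, 382 and 370 TPM in trained 6 h libraries. Its trained 6 h libraries were thus split between the sedentary level and a lower one.

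Some members have near copies elsewhere in the genome, and reads of such genes can be shared out among the copies. A search of the canonical transcripts of 47 members (95% identity over at least 150 bases) found 17 with a near copy in another gene, 8 of them with a copy above 1 TPM on average. Cox7c, a small complex IV subunit (chr13:86189246-86195023, minus strand, GRCm39), had the copy Gm12338, which was more abundant than Cox7c itself. Cox7c was at 738 TPM in untrained 72 h replicate 1 and 726 TPM in trained 72 h replicate 3, and at 376 to 513 TPM in the other libraries. Gm12338 had a median of 2709 TPM and a maximum of 3711 TPM, and was listed at 0 in 3 libraries, the 2 just named and trained 6 h replicate 3. In that last library the copy Cox7c-ps1 was at 2212 TPM, against 8.78 to 77.5 TPM elsewhere. Summed over the 3 genes, the level was 741 and 751 TPM in the 2 libraries with high Cox7c and 2615 to 4239 TPM in the others. The values of Cox7c are therefore uncertain. Atp5l has the copy Gm4045 (191 to 350 TPM), and Cox5b the copy Cox5b-ps, which reached 36.5 TPM and was listed at 0 in 14 of the 21 columns. Cox7c was named after its values were seen.

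**Figure D5:**
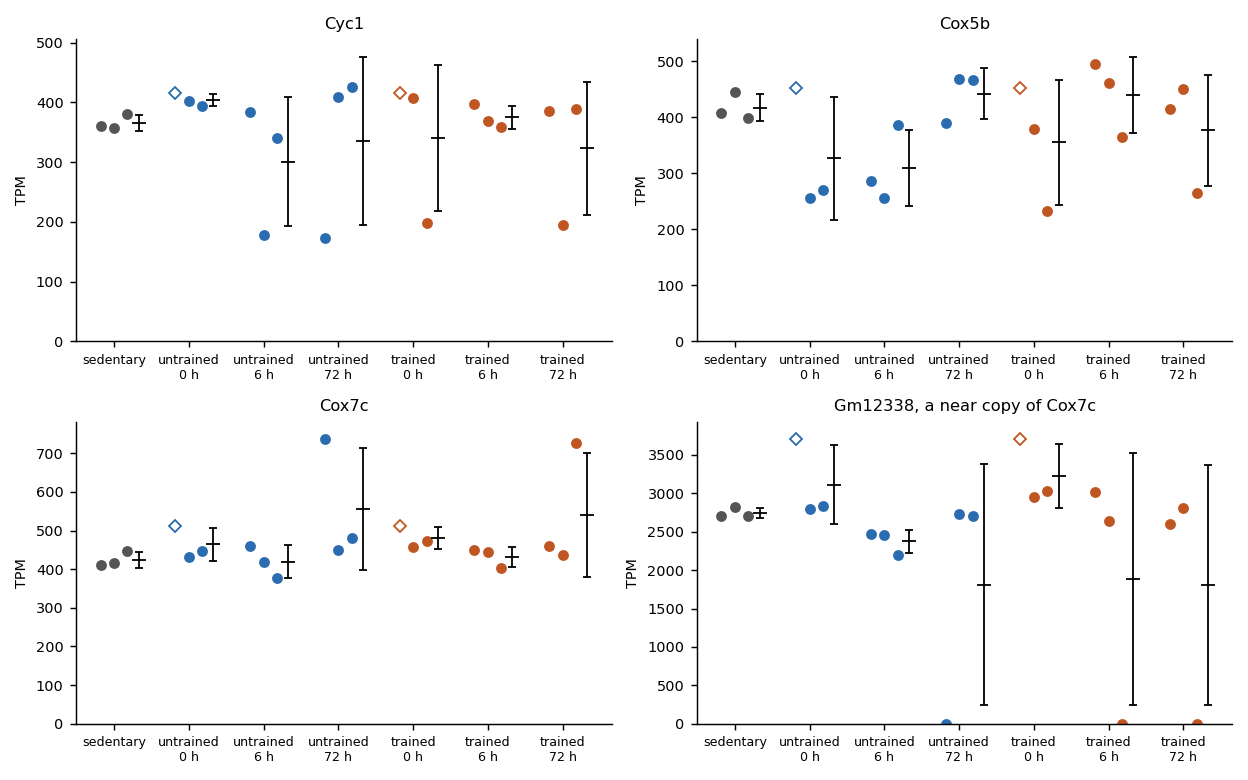
TPM of Cyc1, Cox5b, Cox7c and Gm12338 by group, on axes from 0. Points are libraries, open diamonds the library listed under both 0 h groups, bars the mean and SD of 3 libraries. Cyc1 is at 174 to 199 TPM in 4 libraries of 4 groups, and Gm12338 is listed at 0 in 3 libraries.

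Calls among other genes of the pathway are set beside the share of all genes tested that was called, 0% to 4.42% over the 9 comparisons. Of the assembly factors, 4 of 4 for complex II, 6 of 9 for complex III, 26 of 27 for complex IV and 5 of 5 for complex V were tested. The complex IV list also holds Ndufa4, a subunit of that complex whose symbol the rule does not take. The only call in these lists over the 9 comparisons was Sco2, a copper chaperone of complex IV. It rose in trained muscle at 6 h, where 3.85% of all genes were called. It was at 4.76, 4.70 and 5.26 TPM in sedentary and 7.84, 7.89 and 7.86 TPM in trained 6 h libraries, a log2 fold change of 0.63 ± 0.08 (SE) with an adjusted p of 0.000143 by limma. Of the 6 subunits of complexes III, IV and V made from the mitochondrial genome and of cytochrome c, none was called by limma in any of the 9 comparisons. The 39 complex I subunits had no call either, and their medians at 6 h were -0.03 in untrained and -0.05 in trained muscle. By the adjusted p alone, cytochrome c passed at 0 h in both states (log2 fold changes 0.29 and 0.31), where 7.46% and 9.37% of all genes did. In trained muscle at 6 h, 1 of the 6 mitochondrial subunits passed it against sedentary (10.4% of all genes) and 1 against untrained muscle (4.56%). Of the 26 tested in the complex IV list, 4 passed it in trained muscle at 6 h against sedentary and 2 against untrained muscle. At 0 h, 2 of the 26 passed it in untrained and 3 in trained muscle. In the lists for complexes III and V, 1 factor each passed it in trained muscle at 6 h against sedentary. For complex I, 1 of the 39 subunits passed it in trained muscle at 0 h.

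Among 7 regulators of these genes, 2 were called in any of the 9 comparisons, each of which called between 0% and 4.42% of all genes tested. By the adjusted p of limma alone, 3 of the 7 passed in trained muscle at 6 h against sedentary (10.4% of all genes). Ppargc1a, a coactivator of mitochondrial genes, rose at 6 h in both states, with log2 fold changes of 2.65 ± 0.20 (SE) in untrained and 3.15 ± 0.20 in trained muscle and adjusted p of 2.78e-07 and 3.97e-07 by limma. Esrrg, an oestrogen-related receptor, rose in trained muscle at 6 h, by 1.41 ± 0.14 against sedentary (adjusted p = 3.1e-05 by limma) and by 1.24 ± 0.14 against untrained muscle (adjusted p = 9.18e-05). Immediately after the bout it fell in untrained muscle, with a log2 value of -0.59 against sedentary (adjusted p = 0.0178 by limma). Its untrained 0 h libraries were at 2.09, 2.46 and 2.26 TPM, and the first, the lowest, is the library listed under both 0 h groups. The fold change of Esrrg without that library is not given here. It was at 3.18, 4.14 and 3.70 TPM in sedentary, 5.01, 4.07 and 3.60 TPM in untrained 6 h and 11.9, 10.9 and 9.15 TPM in trained 6 h libraries. At the same time point the members' median log2 fold changes were -0.05 and 0.02.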

How the data were processed

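Quadriceps RNA-seq covered 7 groups of 3 libraries. Libraries were made from total RNA with a kit that does not mark the strand. The deposited table holds TPM per gene symbol, computed by the authors; the submitters' processing notes name salmon 1.5.0, STAR 2.7.9 and the build GRCm39. TPM keeps no depth, so no counting interval is given. Groups were taken from the labels. Members and gene lists were chosen with earlier results of these data known.

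The 11819 of 53738 symbols whose mean reached 1 TPM entered limma 3.58.1 in R 4.3.3 on log2(TPM + 0.5), with the 7 groups in 1 model, a trend of the variance and Benjamini-Hochberg adjustment over all genes tested. Fold changes are on that scale and understate those of low genes. A call needed an adjusted p below 0.05 and 1.5-fold. The fit was tested on simulated data. For rescaled values, genes of the mitochondrial genome were removed and each library was scaled to the same total. The filter of 1 TPM then kept 13566 genes, and shares and medians of all genes on that scale are over these. Isoform ratios were compared by a 2-sided exact permutation test within time points, adjusted over 7 ratios. Near copies were sought with blastn 2.17.0 among GENCODE vM39 transcripts (95% identity over 150 bases), and motifs in RefSeq promoters. Named were the members called, the highest and lowest of each complex at 6 h, 10 core subunits, the isoforms of the ratios and members under the filter; other members named with values (Sdhd at 72 h, Uqcrc2, Cox7b, Cox7c, Atp5e and Atp5h among them) were chosen after their values were seen. Alternatives were other scalings, pseudocounts and filters, a replicate block, the shared library left out, no fold threshold and single libraries left out. The labels state no pairing by replicate number. Deviations of 52 same-number pairs correlated between -0.12 and 0.13, and those of 102 different-number pairs between -0.13 and 0.25. This check cannot exclude a pairing.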

Additional observations from a re-analysis of the deposited data

Results flagged for a closer look

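The Cox7a1/Cox7a2 ratio differed between trained and untrained muscle at 6 h and 72 h by 0.18 on the log2 scale, which is the difference tested by the exact permutation test above.

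Of the 12 pseudogene symbols of these families, which the rule left out, 3 were above 10 TPM in an exercised library and above every sedentary library. Cox7c-ps1 reached 2212 TPM in trained 6 h replicate 3, Cox5b-ps 36.5 TPM in trained 0 h replicate 3 and Atp5k-ps2 15.6 TPM. These are maxima of single libraries and no group difference was tested. All groups hold 3 libraries, so single libraries were not tested as outliers.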

How the results depend on the processing

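Over 437 alternatives of 29 results, 416 kept their direction and their side of the threshold or, for counts, stayed within 1.5 times. For named members that threshold was the call, which needs 1.5-fold, so members with small fold changes could hardly leave their side. Cox6a2 in trained muscle at 6 h kept its side although its adjusted p by limma ranged from 0.0115 to 0.133. The 416 therefore says little about how stable the adjusted p-values of these members were. In untrained muscle at 6 h 1 member, Cox6a1, was called with a pseudocount of 0.1, with a mean of at least 5 TPM and without the shared library, against 0. In trained muscle at 6 h 2 members passed with no fold threshold, and 0 to 1 when single libraries were left out. Against 10 members that varied over the 7 groups, the F test passed 2 under median-of-ratios scaling (26.9% of all genes), 5 with no filter (11.4%) and 6 without the shared library (26%), and 4 to 12 when single libraries were left out (6 without untrained 6 h replicate 3, 4 without trained 72 h replicate 2). The trained-minus-untrained difference of Cox6a1 at 6 h ranged from -0.023 to 0.33 over the libraries left out and turned negative without trained 6 h replicate 1.

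The Cox7a1/Cox7a2 difference was 0.18 with an adjusted p of 0.219 under the replicate block of the exact permutation test, and 0.16 to 0.20 with single libraries left out. The block could not have given this ratio alone a smaller adjusted p. With single libraries left out, Cox4i2/Cox4i1 ranged from -0.18 (exact permutation test adjusted p = 0.0175 without untrained 6 h replicate 1) to -0.079 and Cox7a2l/Cox7a2 from 0.075 to 0.13 (lowest adjusted p 0.035, without untrained 72 h replicate 1). The replicate block changed no count of called members and left 9 that varied, 8 of them among the 10. Leaving out a library leaves a group of 2. The cause of these shifts was not tested. Depth is unknown and limits what can be said of low genes such as Cox4i2.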
